A study of Homo sapiens with 4 samples.

Results

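The 10 genes described here encode core subunits of the Polycomb repressive complexes. They were chosen by name from the 34826 genes of the deposited expression table. EZH1, EZH2, SUZ12, EED and JARID2 belong to Polycomb repressive complex 2 (PRC2), and RNF2, RING1, BMI1, CBX2 and CBX8 to Polycomb repressive complex 1 (PRC1). The study profiled poly-A RNA of HCT116, an established human colorectal cancer line. Every library, controls included, came from cells whose Ki-67 protein carries the mAC-AID degron, a tag through which an auxin triggers destruction of the protein. The IAA group holds 2 libraries of cells given indole acetic acid, an auxin, at 0.5 mM for 24 hours, and the control group holds 2 libraries of the same tagged cells left untreated. Each library pooled 3 dishes, the submitters call the libraries biological replicates, and p-values measure only the spread between these samples. No treated line without the tag was analysed here, so an effect of IAA itself and an effect of Ki-67 loss cannot be told apart. How the tagged line was derived, and whether it is a single clone, is not given in the sources used here.

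Polycomb complexes keep developmental genes silent. PRC2 methylates lysine 27 of histone H3 through EZH2 or its paralog EZH1, which are active only when bound to EED and SUZ12, while JARID2 is an accessory subunit that helps to bring PRC2 to chromatin. PRC1 ubiquitinates histone H2A through RNF2 or RING1 paired with a PCGF protein such as BMI1, and its canonical forms carry a CBX protein, such as CBX2 or CBX8, that binds the methylated histone. EZH2 is abundant in dividing cells and is overexpressed in many tumours, including colorectal cancer, whereas EZH1 is better known from resting and differentiated cells. Ki-67, encoded by MKI67, is found in the nucleus of dividing cells, surrounds chromosomes in mitosis and serves as a proliferation marker.

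The libraries held 38733981 and 40920854 reads in the IAA group and 38953166 and 49448043 reads in the control group, and no pair agreed within sampling noise. Each Polycomb member rested on 953 to 4980 reads per library, and all 10 passed the filter on low values. MKI67 had 174 and 149 TPM (the deposited unit, which corrects for gene length and sequencing depth) in the IAA libraries, against 198 and 151 TPM in the controls. The degron acts on the protein, so this mRNA does not check its removal. Of 10 intestinal epithelial markers, 6 were tested (KRT8, KRT18, KRT19, EPCAM, CDH1 and CDX2). The other 4, CDX1, CDH17, LGR5 and VIL1, were at or near 0, at most 0.255 TPM. Summed over the list, these markers took 4364 and 4839 RPM (reads scaled to library size) in IAA, against 4475 and 4592 in control. Blood markers summed to at most 0.635 RPM in any library and endothelial markers to at most 1.95 RPM. Fibroblast markers summed to 41.3 to 43.9 RPM, mainly COL1A1, with COL1A2, DCN and LUM near 0. Neuronal markers summed to 38.5 and 31.0 RPM in IAA, against 31.7 and 28.4 in control, mainly MAP2.

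No Polycomb member differed between the groups by the test used. Fold changes were fitted with limma on log2(TPM + 1) over 17896 genes and adjusted by the Benjamini-Hochberg method, and 0 of the 10 members passed an adjusted p of 0.05. Over all genes the same test called 0%. At an unadjusted p under 0.05 there were 0 members, against 4.15% of all genes. A second tool, limma voom on the recovered reads, also called 0 members, against 0.00559% of all genes, which is 1 gene. The members' log2 fold changes, IAA over control, lay between -0.17 for CBX2 and 0.13 for BMI1, with 4 positive and 6 negative. Their median was -0.06, beside -0.02 over all genes tested. In 0 members did both IAA libraries exceed both controls, against 11.8% of all genes, and in 2 members, EZH2 and RING1, both were lower, against 17.7% of all genes. In this bulk RNA, a smaller share of expressing cells and less RNA per cell cannot be told apart.

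**Figure D1:**
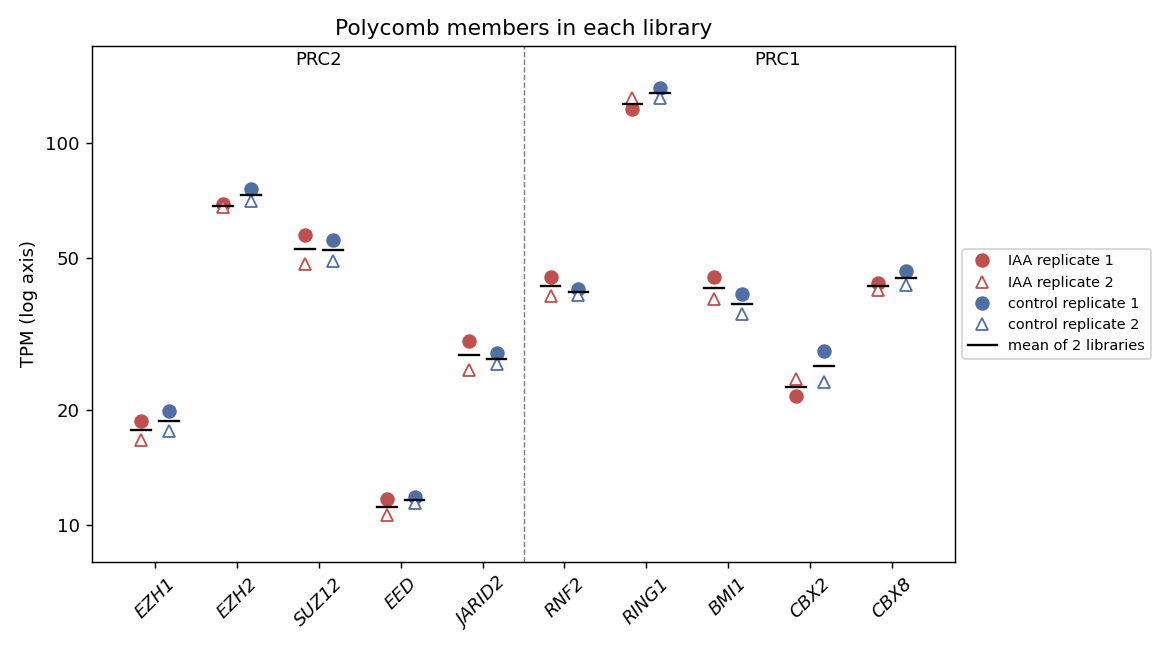
TPM (log axis) of the 10 Polycomb members in each library, with IAA left of control, replicates 1 and 2 as filled circles and open triangles, and the mean of 2 libraries as a bar. The spread between replicates is of the same order as the gap between groups, and IAA and control ranges overlap for 8 of the 10 genes.

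EZH2 was the more abundant of the H3K27 methyltransferases. It lies on the minus strand of GRCh38 at chr7:148807383-148884321 (ENSG00000106462.10). EZH2 had 69.3 and 68.0 TPM in the IAA libraries, against 75.7 and 70.7 TPM in the controls, so both IAA libraries were below both controls. The means were 68.6 ± 0.96 TPM in IAA and 73.2 ± 3.52 TPM in control (SD, n = 2 each). The log2 fold change was -0.09 (SE 0.08), and its 95% interval ran from -0.28 to 0.10 (limma adjusted p = 0.999). A lower level down to 0.824-fold and a higher level up to 1.07-fold both lie within that interval.

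EZH1, the paralog with weaker methyltransferase activity, lies on the minus strand at chr17:42700275-42745049 (ENSG00000108799.12). It had 18.8 and 16.7 TPM in the IAA libraries, against 19.9 and 17.6 TPM in the controls, and the groups overlapped. Its log2 fold change was -0.08 (SE 0.11), and its 95% interval ran from -0.35 to 0.19 (limma adjusted p = 0.999). EZH2 exceeded EZH1 in TPM by 3.70-fold and 4.08-fold in the IAA libraries, against 3.81-fold and 4.01-fold in the controls. EZH2 thus made up 78.7% to 80.3% of the summed TPM of the pair in every library. The size of that excess depends on gene length. It averaged 3.90 ± 0.18 in TPM (SD, n = 4), 4.42 when each gene was rescaled to its principal transcript, and 2.52 in recovered reads with no length correction.

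SUZ12 (chr17:31937018-32001045, plus strand, ENSG00000178691.10), the subunit that holds PRC2 together, had 57.4 and 48.3 TPM in the IAA libraries, against 55.8 and 49.0 TPM in the controls. The replicates differed by 9.10 TPM within IAA and by 6.78 TPM within control, while the group means, 52.8 ± 6.44 TPM in IAA and 52.4 ± 4.79 TPM in control (SD, n = 2 each), differed by 0.38 TPM. The log2 fold change was 0.01 with a 95% interval from -0.28 to 0.29 (limma adjusted p = 0.999).

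SUZ12 has a transcribed partial copy, the pseudogene SUZ12P1 (ENSG00000264538.6), on the same chromosome. A read that covers no base at which the copies differ fits both of them. The sequences below show how close the copies are in a stretch chosen for display. They are 130 bases of exon 7 of the principal SUZ12 transcript, in the coding part (chr17:31975541-31975670), and 130 bases of exon 6 of a SUZ12P1 transcript (chr17:30768893-30769022), read 5′ to 3′ from GENCODE release 29. Capitals mark the 3 positions at which they differ, an identity of 97.7%.
SUZ12: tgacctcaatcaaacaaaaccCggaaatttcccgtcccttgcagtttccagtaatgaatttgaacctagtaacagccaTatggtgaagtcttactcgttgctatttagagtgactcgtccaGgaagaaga
SUZ12P1: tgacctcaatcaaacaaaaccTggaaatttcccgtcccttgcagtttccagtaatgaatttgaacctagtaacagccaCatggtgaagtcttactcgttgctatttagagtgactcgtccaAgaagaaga
Over the whole principal SUZ12 transcript, 47 of 4342 windows of 150 bases, or 1.08%, also occur letter for letter in SUZ12P1. SUZ12P1 had 11.2 and 11.9 TPM in the IAA libraries, against 14.7 and 12.6 TPM in the controls, so both IAA libraries were below both controls. Its log2 fold change was -0.22 with a 95% interval from -0.51 to 0.07 (limma adjusted p = 0.999). SUZ12 exceeded SUZ12P1 by 5.12-fold and 4.04-fold in TPM in the IAA libraries, against 3.79-fold and 3.88-fold in the controls.

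EED (chr11:86244544-86278813, plus strand, ENSG00000074266.19), which reads trimethylated H3K27 and stimulates the enzyme, had 11.7 and 10.6 TPM in the IAA libraries, against 11.8 and 11.4 TPM in the controls. The groups overlapped, and the log2 fold change was -0.05 with a 95% interval from -0.32 to 0.21 (limma adjusted p = 0.999). JARID2 (chr6:15246296-15522040, plus strand, ENSG00000008083.13) had 30.4 and 25.4 TPM in the IAA libraries, against 28.2 and 26.3 TPM in the controls. Here the IAA libraries lay outside the control range on both sides, with a log2 fold change of 0.03 and a 95% interval from -0.25 to 0.30 (limma adjusted p = 0.999). All 5 PRC2 members therefore had fold changes between -0.09 and 0.03 on the log2 scale.

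Among the E3 ligases of PRC1, RING1 (chr6:33208495-33212722, plus strand, ENSG00000204227.4) was far above RNF2 (chr1:185045364-185102608, plus strand, ENSG00000121481.10). RING1 had 122.8 and 131.4 TPM in the IAA libraries, against 140.0 and 131.5 TPM in the controls. Both IAA libraries were below both controls, but IAA replicate 2 and control replicate 2 were nearly equal. The means were 127 ± 6.10 TPM in IAA and 136 ± 6.04 TPM in control (SD, n = 2 each), a log2 fold change of -0.09 (SE 0.08), and its 95% interval ran from -0.28 to 0.10 (limma adjusted p = 0.999). RNF2, also known as RING1B and in mouse the ligase needed for early development, had 44.7 and 39.7 TPM in the IAA libraries, against 41.5 and 40.1 TPM in the controls. Its groups overlapped, with a log2 fold change of 0.04 and a 95% interval from -0.18 to 0.27 (limma adjusted p = 0.999).

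The RING1 to RNF2 ratio in TPM was 2.75 and 3.31 in the IAA libraries, against 3.38 and 3.28 in the controls. IAA replicate 1 had the lowest ratio, with the lowest RING1 and the highest RNF2 of the 4 libraries. RING1 accounted for 73.3% to 77.2% of the pair's TPM. In recovered reads the ratio averaged 1.42, beside 3.18 in TPM and 2.92 by principal transcript, since RING1 is a short gene of 1818 exon bases and RNF2 has 4073.

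BMI1 (chr10:22321211-22331484, plus strand, ENSG00000168283.13), also called PCGF4 and known for repressing the CDKN2A locus, had the most positive fold change of the members with all 4 libraries. It had 44.6 and 39.0 TPM in the IAA libraries, against 40.3 and 35.7 TPM in the controls. IAA replicate 2 lay between the controls, so the groups overlapped. The means were 41.8 ± 3.95 TPM in IAA and 38.0 ± 3.22 TPM in control (SD, n = 2 each), with a log2 fold change of 0.13 (SE 0.11) and a 95% interval of -0.13 to 0.40 (limma adjusted p = 0.999).

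The level of BMI1 has a counting limit. The readthrough gene COMMD3-BMI1 covers 1000 of the 4283 exon bases of BMI1, or 23.3%, and has no exon base of its own. It was counted at 0 reads in both IAA libraries, against 0 and 1 read in the controls, and the sources used here do not say how reads with more than 1 possible gene were handled. If BMI1's reads all fell on its own 3283 bases, its level would be 58.2 and 50.9 TPM in the IAA libraries, against 52.5 and 46.6 TPM in the controls. The upstream neighbour COMMD3 had 9.06 and 9.78 TPM in IAA, against 9.10 and 9.31 TPM in control.

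CBX2 (chr17:79778132-79787983, plus strand, ENSG00000173894.10), a chromodomain protein known for compacting chromatin, had the most negative fold change of the members with all 4 libraries. It had 21.8 and 24.1 TPM in the IAA libraries, against 28.5 and 23.6 TPM in the controls, and the groups overlapped because control replicate 2 was below IAA replicate 2. The means were 23.0 ± 1.64 TPM in IAA and 26.1 ± 3.46 TPM in control (SD, n = 2 each). The log2 fold change was -0.17 (SE 0.12), and its 95% interval ran from -0.47 to 0.12 (limma adjusted p = 0.999). The value depended on single libraries, being -0.04 without control replicate 1, -0.10 without IAA replicate 1 and -0.30 without control replicate 2, and in the first 2 of these fits other members were more negative. CBX8 (chr17:79792132-79801683, minus strand, ENSG00000141570.10), which also binds methylated H3K27 within canonical PRC1, had 43.0 and 41.3 TPM in the IAA libraries, against 46.2 and 42.6 TPM in the controls. Its groups overlapped, with a log2 fold change of -0.07 and a 95% interval from -0.28 to 0.14 (limma adjusted p = 0.999).

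CBX2 and CBX8 are neighbours, 4148 bases apart on opposite strands, and both had negative fold changes that did not pass the test. CBX8 exceeded CBX2 in TPM by 1.97-fold and 1.71-fold in the IAA libraries, against 1.62-fold and 1.80-fold in the controls. The excess of CBX8 was thus present in every library, and the IAA and control ratios overlapped. Neither was the most abundant CBX gene of PRC1. CBX6 held 34.3% to 38.9% of the summed TPM of that family, against 15.0% to 16.2% for CBX8 and 8.22% to 9.27% for CBX2.

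**Figure D2:**
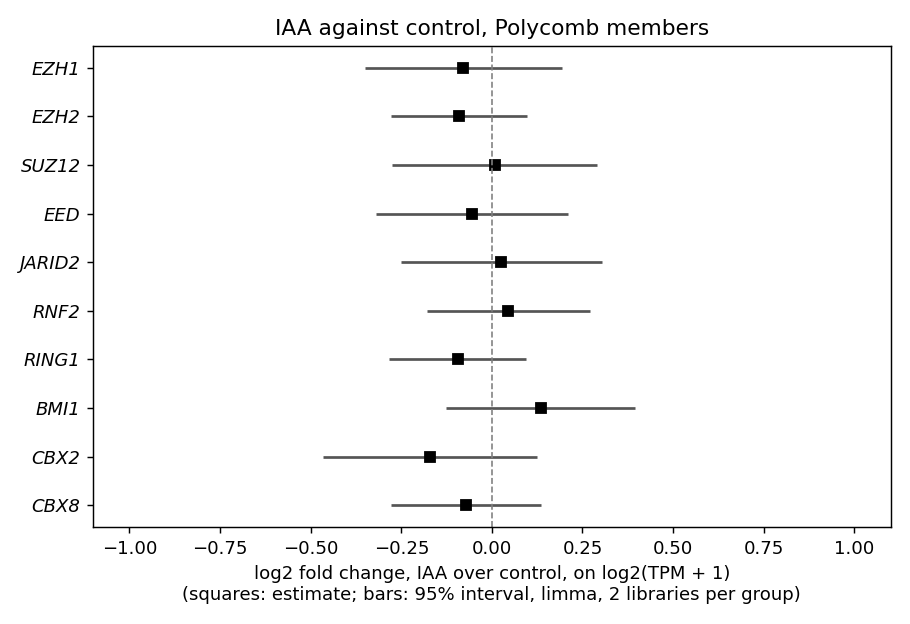
Log2 fold change of IAA over control on the log2(TPM + 1) scale for each Polycomb member (squares), with its 95% interval from limma (bars, 2 libraries per group). Every interval includes 0 and the outermost bounds are -0.47 for CBX2 and 0.40 for BMI1.

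The intervals limit how large a difference these libraries could have missed. Across the 10 members the 95% bounds reached from 0.724-fold for CBX2 to 1.32-fold for BMI1. EZH2, with the narrowest interval, spanned 0.38 log2 units, and CBX2, with the widest, spanned 0.59. For 1 member, RING1, the difference between group means exceeded the difference between replicates in both groups, and only narrowly. For 8 of the 10 members the replicate numbered 1 was the higher in both groups, as it was for 44.0% of all genes tested. With the replicate number as a block, 0 members passed and the lowest adjusted p of a member was 0.954 (limma). The sign of the fold change turned for 5 members, EZH1, SUZ12, EED, JARID2 and RNF2, when some library was left out, and held for the other 5, whose sizes still moved by over 1.5 times, for BMI1 between 0.04 and 0.23 and for CBX8 between -0.13 and -0.01.

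Ranked by mean TPM over the 4 libraries, the members ran from RING1 (131 TPM) through EZH2 (70.9), SUZ12 (52.6), CBX8 (43.3), RNF2 (41.5), BMI1 (39.9), JARID2 (27.6), CBX2 (24.5) and EZH1 (18.2) to EED (11.4 TPM). The 4-library ranges of neighbours overlapped for CBX8 and RNF2, for RNF2 and BMI1, and for JARID2 and CBX2, and the other neighbours were separate. The deposited lengths count every exon base of every transcript of a gene, so a gene whose principal transcript uses a small part of them gets a lower TPM. EED has 7016 exon bases against 2223 in its principal transcript, a factor of 3.16. Rescaled to principal transcripts, EED moved to rank 7, at 35.9 TPM, and EZH2 to 122 TPM, where its range overlapped that of RING1 at 136 TPM.

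**Figure D3:**
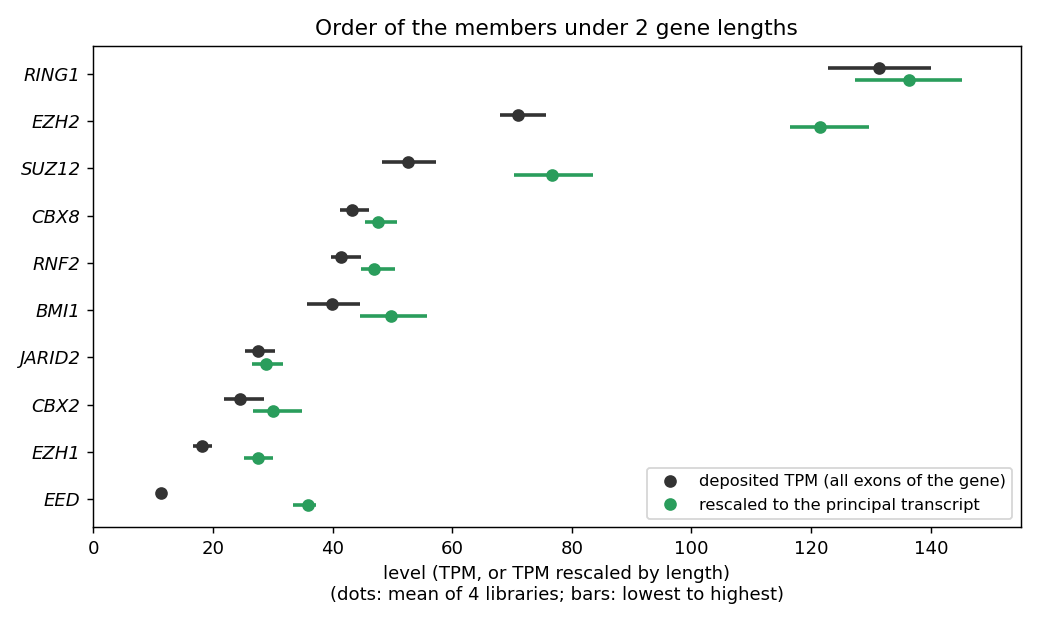
Mean level over 4 libraries (dots) and range from lowest to highest (bars) for each Polycomb member, as deposited TPM (dark) and rescaled to the length of the principal transcript (green). RING1 is at the top of both scales, while EED moves from 11.4 to 35.9 TPM and EZH2 from 70.9 to 122 TPM.

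The 3 subunits that form the catalytic core of PRC2 were thus unequal in mRNA. In TPM, the ratio of EZH2 to SUZ12 was 1.35 ± 0.10 and that of EZH2 to EED was 6.24 ± 0.23 (SD, n = 4). By principal transcript these ratios were 1.59 and 3.39. On both length-corrected scales EZH2 was the highest of the core and EED the lowest. In recovered reads with no length correction the ratio of EZH2 to SUZ12 was 0.935, so their order depends on that correction.

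In deposited TPM, BMI1 was not the most abundant paralog of its family. BMI1 made up 20.2% and 17.4% of the summed TPM of the 6 PCGF genes in the IAA libraries, against 17.5% and 16.5% in the controls. PCGF3 had the largest share in deposited TPM, at 27.0% to 28.6%. PCGF2, also called MEL18, is the closest paralog of BMI1 and took 16.7% to 20.9%. Other genes, CISD3 among them, overlap 45.7% of the exon bases of PCGF2, against 23.3% for BMI1 and 7.49% for PCGF3. The level of PCGF2 is therefore uncertain, and so are the shares and the order of the family.

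**Figure D4:**
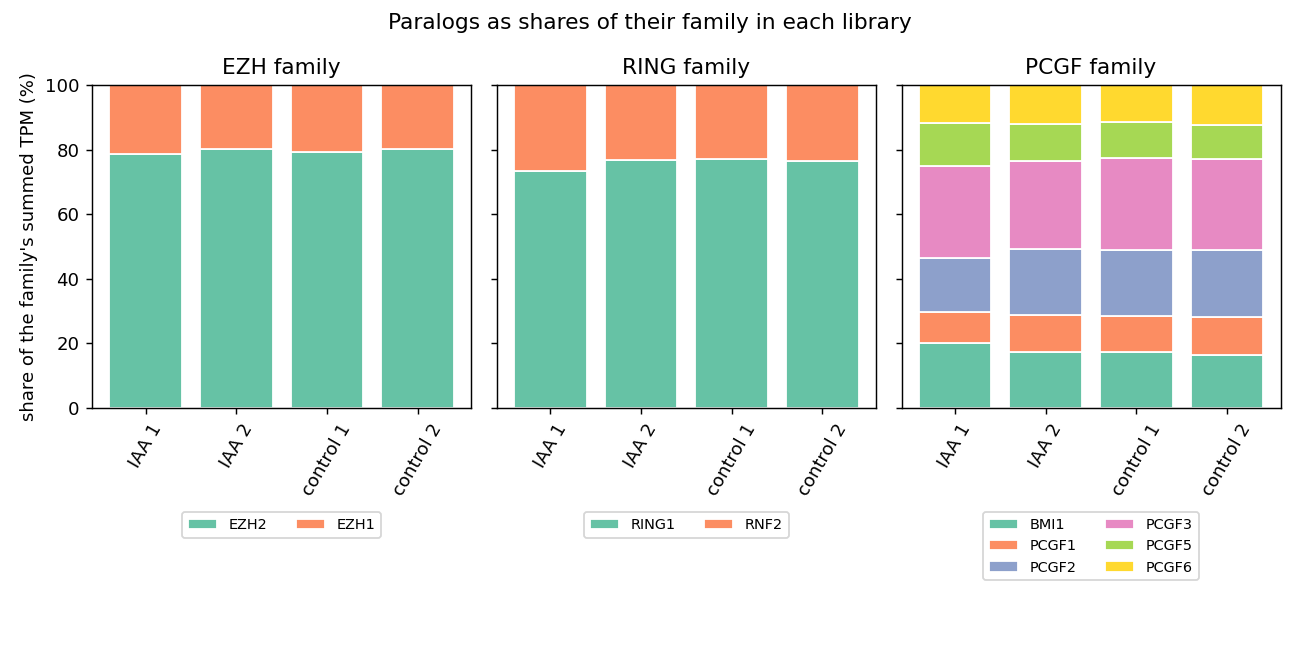
Shares (%) of the summed TPM of the EZH, RING and PCGF paralog families in each library, with the IAA libraries left of the controls. EZH2 holds 78.7% to 80.3% of its pair and RING1 holds 73.3% to 77.2%, whereas BMI1 holds 16.5% to 20.2% of the PCGF family.

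Promoter sequence was available for 8 of the 10 members, in 11 RefSeq entries (GRCh38.p14). EZH2 is a textbook target of E2F factors, which drive genes of the cell cycle, so the windows were searched on both strands for TTTCCCGC, TTTGGCGC, TTTCGCGC and TTTGCCGC. EZH2, SUZ12 and EZH1 each held 1 match in 1 of the 11 entries. Over all 35116 promoter entries, 3.31% held at least 1. Each motif contains the letters CG, and the member entries held 16 to 65 CG pairs, against a median of 14 over all promoters. The share over all promoters is therefore not a matched background for the members. The 3 promoters with a match are shown from 250 bases before to 30 bases after the transcript start, 5′ to 3′ on the strand of the gene, with the matched letters in capitals. In EZH2 (chr7:148884262-148884541, minus strand) the match is TTTGGCGC at bases 2 to 9 of the transcript. In SUZ12 (chr17:31936757-31937036, plus strand) it is TTTCCCGC at -189 to -182. In EZH1 (chr17:42745011-42745290, minus strand) the reverse complement of TTTGCCGC stands at -115 to -108.
EZH2: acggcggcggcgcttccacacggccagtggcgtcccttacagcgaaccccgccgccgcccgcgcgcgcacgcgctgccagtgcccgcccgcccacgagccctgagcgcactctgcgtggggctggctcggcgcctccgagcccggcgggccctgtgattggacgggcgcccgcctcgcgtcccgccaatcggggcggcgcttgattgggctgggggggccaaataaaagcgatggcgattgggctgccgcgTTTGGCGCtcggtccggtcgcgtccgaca
SUZ12: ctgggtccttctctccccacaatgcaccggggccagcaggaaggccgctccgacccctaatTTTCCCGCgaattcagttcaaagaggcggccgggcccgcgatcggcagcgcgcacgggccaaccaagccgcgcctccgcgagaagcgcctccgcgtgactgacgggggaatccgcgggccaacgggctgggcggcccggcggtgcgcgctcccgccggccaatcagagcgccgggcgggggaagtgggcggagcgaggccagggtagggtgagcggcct
EZH1: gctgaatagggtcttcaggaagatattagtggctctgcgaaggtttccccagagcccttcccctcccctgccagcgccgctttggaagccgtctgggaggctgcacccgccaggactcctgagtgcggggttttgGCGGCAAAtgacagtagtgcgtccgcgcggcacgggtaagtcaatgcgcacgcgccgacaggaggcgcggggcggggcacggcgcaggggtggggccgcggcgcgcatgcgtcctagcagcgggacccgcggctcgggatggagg
A match describes these letters and is not a binding site. E2F1 mRNA, which encodes an activating E2F factor, was 24.5 and 29.1 TPM in the IAA libraries, against 31.2 and 29.8 TPM in the controls (limma adjusted p = 0.999).

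The other genes of the Polycomb system, its target genes and a set of proliferation genes were described by lists. Of 90 further listed genes that were tested, 12 of them proliferation genes, 0 were called. Fold changes were positive for 36 and negative for 54, and 4 genes had an unadjusted limma p under 0.05. Both IAA libraries were above both controls for 13 genes and below both for 18. Over all genes tested, 55.5% of fold changes were negative, 4.15% had an unadjusted p under 0.05, and 11.8% and 17.7% had both IAA libraries above and below both controls. Among 8 other PRC2 subunits and cofactors, 3 fold changes were positive and 5 negative, with a median of -0.01. The accessory subunits AEBP2 and MTF2 had the smallest p-values among the positive ones, and PHF1 and PHF19 among the negative ones. PHF1, a Polycomb-like protein that binds PRC2, averaged 54.7 ± 0.97 TPM in IAA and 60.3 ± 2.81 TPM in control (SD, n = 2 each), a log2 fold change of -0.14. PHF19 averaged 19.1 ± 1.91 TPM in IAA and 20.9 ± 0.16 TPM in control, a log2 fold change of -0.13. MTF2 averaged 38.7 ± 2.73 TPM in IAA and 37.2 ± 1.97 TPM in control, and AEBP2 averaged 31.6 ± 2.88 TPM in IAA and 29.7 ± 1.91 TPM in control.

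Among 25 other PRC1 subunits and cofactors, 8 fold changes were positive and 17 negative, with a median of -0.05. FBRS, a subunit of variant PRC1 with PCGF3 or PCGF5, averaged 36.0 ± 2.48 TPM in IAA and 42.0 ± 3.17 TPM in control (SD, n = 2 each), a log2 fold change of -0.22. PCGF5 averaged 27.6 ± 2.35 TPM in IAA and 24.4 ± 1.86 TPM in control, a log2 fold change of 0.17. BCOR, a corepressor that joins PRC1 with PCGF1, averaged 20.2 ± 0.60 TPM in IAA and 18.5 ± 1.27 TPM in control, a log2 fold change of 0.12.

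Among 12 tested genes for enzymes and cofactors that remove the Polycomb marks, 2 fold changes were positive and 10 negative, with a median of -0.04, and ASXL3 was at 0 in all 4 libraries. MBD6, a cofactor of the H2A deubiquitinase complex, had 12.4 and 13.4 TPM in the IAA libraries, against 17.3 and 15.4 TPM in the controls. Its log2 fold change was -0.32 (SE 0.11), and its 95% interval ran from -0.58 to -0.06. The unadjusted p was 0.0254, it did not pass over all genes (limma adjusted p = 0.999), and 1.86% of its exon bases overlap DDIT3 or DCTN2. FOXK1, a DNA-binding partner of that complex, averaged 34.4 ± 1.03 TPM in IAA and 38.2 ± 5.10 TPM in control (SD, n = 2 each). The deubiquitinase USP16 averaged 39.7 ± 3.42 TPM in IAA and 38.7 ± 1.43 TPM in control, and the cofactor ASXL1 averaged 24.9 ± 2.15 TPM in IAA and 24.8 ± 2.16 TPM in control.

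The HOX genes, which set position along the body axis, are classical targets of both complexes. Their summed mRNA levels in TPM were very unequal between the clusters. The table holds 38 HOX genes, of which 26 were tested. The 9 HOXB genes summed to 323 and 356 TPM in the IAA libraries, against 347 and 341 TPM in the controls, led by HOXB7 at a mean of 88.3 TPM. HOXA summed to 166 and 172 TPM in IAA, against 164 and 153 TPM in control, and HOXC to 41.7 and 44.8 TPM, against 45.9 and 43.0 TPM in control. HOXD summed to 11.5 and 10.8 TPM in IAA, against 10.9 and 10.8 TPM in control. HOXD8, at a mean of 9.09 TPM, was the only tested gene of its cluster, and HOXD1 was at 0 in every library. Other genes overlap 58.1% of the exon bases of HOXD1 and 32.9% of those of HOXB6, but 0% for HOXB7 and HOXD8. In the HOXA cluster they overlap 27.0% of the exon bases of HOXA9, its highest gene, and 62.5% of those of HOXA7. The cluster sums carry this limit.

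**Figure D5:**
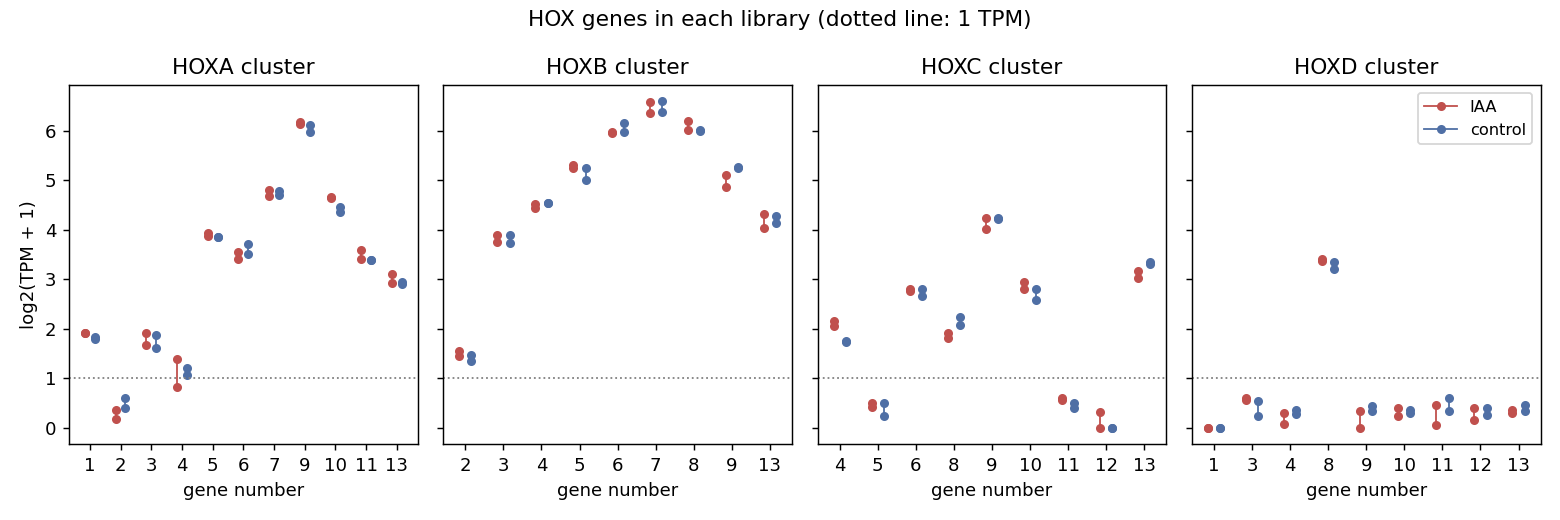
Log2(TPM + 1) of the HOX genes in each library by cluster and gene number, with IAA left of control and a line joining the 2 libraries of a group; the dotted line is 1 TPM. HOXB genes reach a mean of 88.3 TPM, while all HOXD genes other than HOXD8 lie below the dotted line.

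Of the 26 HOX genes, 16 had positive and 10 negative fold changes, with a median of 0.04, and 0 were called. Over all genes tested, 44.5% of fold changes were positive. Both IAA libraries were above both controls for 8 HOX genes and below both for 4, against 11.8% and 17.7% of all genes. HOXA10 had 24.5 and 24.1 TPM in the IAA libraries, against 21.0 and 19.5 TPM in the controls, a log2 fold change of 0.25 with an unadjusted p of 0.0332 (limma adjusted p = 0.999). Other genes, HOXA10-AS among them, overlap 26.3% of its exon bases, so this value is uncertain. HOXB9 had 28.0 and 33.2 TPM in the IAA libraries, against 37.7 and 37.1 TPM in the controls, a log2 fold change of -0.28 with an unadjusted p of 0.0363 (limma adjusted p = 0.999). These 2 genes thus lay on opposite sides of their controls, and neither passed over all genes. HOXC4 averaged 3.29 ± 0.20 TPM in IAA and 2.35 ± 0.04 TPM in control (SD, n = 2 each), with 17.8% of its exon bases overlapped by HOXC5 or HOXC6. HOXC13 averaged 7.59 ± 0.56 TPM in IAA and 9.09 ± 0.18 TPM in control.

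The table holds 16 other classical Polycomb targets, of which 7 were tested, with 2 positive and 5 negative fold changes and a median of -0.08. NKX2-5, a heart transcription factor, was at 0 in all libraries, and PAX7, TBX5 and WT1, other developmental regulators, were near 0. CDKN2A, which encodes the cell cycle inhibitors p16 and ARF and is repressed by BMI1 in many cells, had 34.2 and 38.2 TPM in the IAA libraries, against 42.3 and 41.3 TPM in the controls. Both IAA libraries were below both controls, with a log2 fold change of -0.20 and a 95% interval from -0.43 to 0.02 (limma adjusted p = 0.999). CDKN1C, the inhibitor p57, averaged 37.2 ± 2.29 TPM in IAA and 40.1 ± 2.29 TPM in control (SD, n = 2 each). The neuronal regulator ISL1 averaged 2.04 ± 0.33 TPM in IAA and 1.78 ± 0.21 TPM in control, and the islet regulator NKX6-1 averaged 9.10 ± 0.75 TPM in IAA and 9.09 ± 0.51 TPM in control.

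Since EZH2 follows proliferation in many cells, a list of 12 proliferation genes is given beside it. It held 5 positive and 7 negative fold changes, from -0.19 to 0.15, with a median of -0.06, and 0 genes were called. Both IAA libraries were above both controls for 3 of these genes and below both for 6, against 11.8% and 17.7% of all genes tested. RRM2, a ribonucleotide reductase subunit, averaged 93.3 ± 2.21 TPM in IAA and 84.1 ± 3.84 TPM in control (SD, n = 2 each), though other genes overlap 20.2% of its exon bases. CCNA2, cyclin A, had 171 and 156 TPM in the IAA libraries, against 151 and 149 TPM in the controls. The replication licensing gene MCM3 averaged 139 ± 0.79 TPM in IAA and 148 ± 3.71 TPM in control. Whether the cells' rate of division contributed to any value here was not tested.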

How the data were processed

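Libraries were grouped by their labels. The authors deposited 1 table of TPM values (reads per gene divided by gene length, scaled to 1000000 per library). Per the submitters' processing notes, the builds were hg38 and GRCh38.p12 and the tools included DESeq2 1.20.0 and featureCounts 1.5.2. What each was used for, the aligner and the strand setting: not given in the sources used here. Reads per gene were recovered as TPM times length over the smallest step of each library, and 100% came out whole (tolerance 1e-06). Every table length equalled the exon bases of GENCODE 29, from which coordinates were taken. On log2(TPM + 1), which understates changes of low genes, limma 3.58.1 in R 4.3.3 (lmFit, eBayes with a trend) was fitted to the 17896 genes reaching 1 TPM in 2 or more libraries. P-values are two-sided and adjusted by the Benjamini-Hochberg method over all genes (threshold 0.05). The moderated fit had 2 residual degrees of freedom and 3.93 prior degrees of freedom borrowed across genes. An exact permutation test of 2 against 2 libraries cannot go below 0.333 and was not used. The code was tested on simulated data. The members and gene lists were chosen with earlier results of these data known. Named genes are the members, the 2 genes of each list with the smallest p in each direction, read-sharing partners and MKI67. CBX6, PCGF2, PCGF3, HOXA7, HOXA9, HOXB6, HOXB7, HOXD8, HOXD1, PAX7, TBX5, WT1, NKX2-5 and ASXL3 were added after their values were seen. An item that the rule names is not reported here.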

Additional observations from a re-analysis of the deposited data

How the results depend on the processing

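With 2 libraries per group the members' 95% intervals, which are not adjusted for multiple tests, are wide beside their fold changes. Over 7 alternatives that kept all 4 libraries (pseudocount 0.1, no filter, a mean of at least 5 TPM, median-of-ratios scaling, the replicate block, protein-coding genes only and limma voom), the 70 fold changes of the members kept their sign and 0 passed. Changing the filter or adding the replicate block leaves a member's estimate as it was, so those signs could not turn. No setting called a member. The labels do not say that replicate numbers mark a shared day. Replicate differences correlated between groups at -0.07 over all genes tested and at 0.22 over protein-coding genes, and the replicate block called 0 genes higher and 0 lower; the lowest adjusted p of a member was 0.954 (limma). Over all genes, 1 gene was called higher with a mean of at least 5 TPM (SNORD14A), 1 among protein-coding genes only (ALDH1A3) and 1 by voom (ALDH1A3).

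Leaving out 1 library at a time gave 0 to 707 genes called higher and 0 to 573 called lower. Dropping IAA replicate 1 gave 117 higher and 310 lower, and dropping IAA replicate 2 gave 707 and 573. A single IAA library is then taken to have the spread of the control pair, smoothed into a trend over all genes and not kept per gene. Among the other lists 0 to 1 gene was called, HOXB9 without IAA replicate 2. The log2 fold change ranged from -0.16 to 0.003 for EZH1, from -0.11 to 0.13 for SUZ12, from -0.12 to 0.01 for EED, from -0.10 to 0.15 for JARID2 and from -0.04 to 0.13 for RNF2. These 5 changed sign without some library. The other 5 kept their sign but not their size, ranging from -0.14 to -0.04 for EZH2, from -0.14 to -0.05 for RING1, from 0.04 to 0.23 for BMI1, from -0.30 to -0.04 for CBX2 and from -0.13 to -0.01 for CBX8. Among values whose sign turned were 0.0031 without control replicate 1 and 0.0018 on dropping IAA replicate 2 for EZH1, 0.012 without IAA replicate 2 for EED and -0.039 on dropping IAA replicate 1 for RNF2. The cause was not tested. Of 88 list medians, 8 moved by more than the spread between replicates.

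By length, EZH2 over EZH1 was 2.52 in reads and 4.42 by principal transcript, and RING1 over RNF2 was 1.42 in reads. BMI1 was at 52.1 TPM on its own exon bases. Principal transcripts and own exon bases were chosen after seeing the data.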
